A study of Mus musculus with 27 samples.

Results

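The transcripts described here are those of the mitochondrial genome, taken as every row of a mouse cortex RNA-seq count table whose symbol starts with mt-. There were 18 such rows of 22340, and they were grouped by annotated type into 2 rRNAs (mt-Rnr1, mt-Rnr2), 13 protein-coding genes and 3 tRNAs (mt-Tp, mt-Tc, mt-Tn). The GENCODE release M21 annotation lists 37 genes on the mouse mitochondrial chromosome, 22 of them tRNAs, and the other 19 tRNAs were not analysed here. The libraries came from wild-type C57BL6 mice of 7 to 8 weeks in a model of transient stroke, in which a suture passed up the right carotid artery blocked the middle cerebral artery for 35 min before blood flow was restored. Cortex was taken from the occluded (ipsilateral) and the unoccluded (contralateral) hemisphere after 3, 6, 12 or 24 h of reperfusion. Sham animals had anaesthesia and exposure of the arteries but no suture. This gives 9 groups of 3 libraries, 27 in all, and replicate numbers mark days of surgery. The labels do not say which hemisphere or time the sham cortex represents, or whether the 2 hemispheres of a group pair came from the same animals.

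The mitochondrial genome is a small circle transcribed from both strands into long precursor RNAs. In the usual account the tRNAs lie between the other genes and are cut out, which frees the mRNAs and rRNAs. The rRNAs form the mitochondrial ribosome, the mRNAs encode core subunits of respiratory complexes I, III and IV and of ATP synthase, and the tRNAs serve translation inside the organelle. All other respiratory subunits, the polymerase and the processing enzymes are encoded in the nucleus, and neurons depend heavily on oxidative phosphorylation (OXPHOS), which fails when blood flow stops.

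The 3 tRNAs are all read from the minus strand, and their sequences are shown because a tRNA was the one class with a called member. They were read from the GENCODE M21 transcripts (build mm10) and are written 5′ to 3′ as DNA letters with the anticodon in capitals. The proline tRNA mt-Tp lies at chrM:15356-15422, the cysteine tRNA mt-Tc at chrM:5192-5257 and the asparagine tRNA mt-Tn at chrM:5089-5159.
mt-Tp: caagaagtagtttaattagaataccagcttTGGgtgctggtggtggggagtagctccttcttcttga
mt-Tc: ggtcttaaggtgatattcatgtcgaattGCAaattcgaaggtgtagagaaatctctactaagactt
mt-Tn: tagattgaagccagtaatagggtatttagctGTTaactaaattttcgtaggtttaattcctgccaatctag
No 50-base window of these 3 genes occurred in an annotated nuclear transcript. The genes are 66 to 71 bases long, and the counts do not separate mature tRNA from uncut precursor or from RNA of the other strand, since the strand setting of the counting is not given in the sources used here.

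Several coding genes, by contrast, have near-identical copies in nuclear DNA, and the next sequences show how alike they are. In each pair the mitochondrial stretch comes first and the annotated nuclear pseudogene second, with differing bases in capitals. The first pair is mt-Atp6 at chrM:7927-7986 and Gm10925 at chr1:24614592-24614651, with 0 differing bases of 60.
mt-Atp6: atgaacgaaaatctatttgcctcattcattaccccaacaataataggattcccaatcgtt
Gm10925: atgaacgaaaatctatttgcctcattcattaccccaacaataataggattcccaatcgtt
The second is mt-Co1 at chrM:6390-6449 and Gm29216 at chr1:24616129-24616188, with 1 differing base, the only one in the 483 aligned bases of this copy.
mt-Co1: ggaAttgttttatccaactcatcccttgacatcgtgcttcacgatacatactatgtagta
Gm29216: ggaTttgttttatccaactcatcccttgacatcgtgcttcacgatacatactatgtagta
The last is mt-Nd5 at chrM:12643-12702 and Gm4076 at chr13:85127259-85127318 with 9 differing bases.
mt-Nd5: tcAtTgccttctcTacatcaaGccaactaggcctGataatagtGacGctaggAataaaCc
Gm4076: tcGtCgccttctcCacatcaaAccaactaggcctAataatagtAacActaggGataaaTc

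Totals ran from 26505996 to 48830897 counts, so counting error was small: the widest 95% Wilson interval was ±0.0164 percentage points for the rRNA share, ±0.0038 points for the coding share and ±2.0 CPM (counts in each 1000000 of the column total) for the tRNA share. These intervals cover counting error only. Both replicate 1 libraries of contralateral 3 h and ipsilateral 24 h stood apart from the rest in the mitochondrial rows, and results that rest on them are given with and without them. In contralateral 3 h replicate 1, genes of low GC content also read higher than genes of high GC content, by 1.09 on the log2 scale between the lowest and highest deciles of GC content, against -0.35 to 0.26 in the other libraries. The mitochondrial rows have 31.9% to 44.8% GC. All of them except mt-Tp lie below 41.5%, the upper bound of the lowest decile of the nuclear genes compared. The part of GC content in the values of that library was not tested.

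The rRNAs took the largest share of the counts. Although the RNA had been depleted of rRNA before library preparation, mt-Rnr1 and mt-Rnr2 together held 24.4% to 40.4% of each column total, with a median of 28.1%. The 13 coding genes together held 0.674% to 1.57%, median 0.812%. The 3 tRNAs held 13.9 to 37.4 CPM. Since the values are shares, a gene's share can move because other RNAs moved, and the rRNA share measures what was left after depletion. In bulk tissue, fewer cells of a type and less RNA per cell cannot be told apart.

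**Figure D1:**
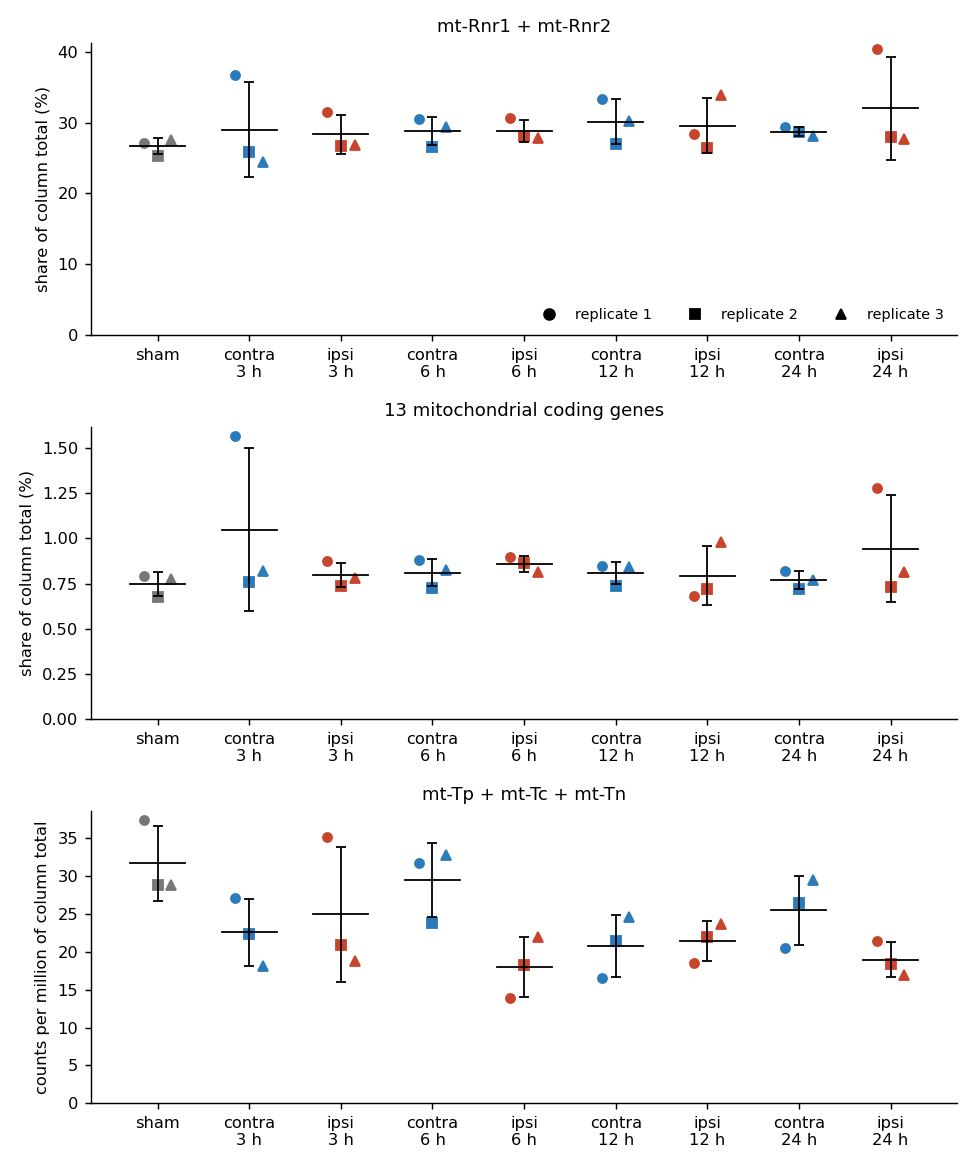
Share of the column total in each of the 27 libraries for the 2 rRNAs (percent), the 13 coding genes (percent) and the 3 tRNAs (CPM), by group; symbols mark replicates, horizontal lines group means and bars SD (n = 3). Contralateral 3 h replicate 1 has the highest coding share, 1.57%, and ipsilateral 24 h replicate 1 the highest rRNA share, 40.4%.

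The rRNA share was 27.1%, 25.3% and 27.5% in the sham libraries, listed here and below from replicate 1 to 3. Contralateral cortex held 36.7%, 25.9% and 24.4% after 3 h, 30.5%, 26.6% and 29.3% after 6 h, 33.3%, 26.9% and 30.2% after 12 h, and 29.4%, 28.7% and 28.1% after 24 h. Ipsilateral cortex held 31.5%, 26.7% and 26.9% after 3 h, 30.6%, 28.1% and 27.8% after 6 h, 28.4%, 26.4% and 33.9% after 12 h, and 40.4%, 28.0% and 27.7% after 24 h. The hemispheres overlapped at 3, 6, 12 and 24 h. Averaged over the 4 times, the ipsilateral mean was 29.7% and the contralateral mean 29.2%, a difference of 0.52 percentage points (exact permutation within time over 160000 arrangements, two-sided p = 0.754, adjusted p = 0.829 over the 11 class comparisons). The ipsilateral share was higher in 6 of 12 same-day pairs. By time the difference was -0.64, 0.0045, -0.55 and 3.28 points, and by surgery day 0.25, 0.25 and 1.06 points. The value after 3 h was 3.20 points without contralateral 3 h replicate 1, and that after 24 h was -0.90 points without ipsilateral 24 h replicate 1. Leaving out the latter library turned the mean difference to -0.52 points. Against the sham mean of 26.7%, the difference was 3.02 points for the 12 ipsilateral libraries (exact permutation, p = 0.209, adjusted p = 0.48) and 2.49 points for the 12 contralateral ones (exact permutation p = 0.229, adjusted p = 0.48).

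Of the pair, mt-Rnr2, the large-subunit rRNA (chrM:1094-2675), had 4.02 to 6.11 counts for each count of mt-Rnr1, the small-subunit rRNA (chrM:70-1024). Its log2 fold change between the hemispheres, as fitted by edgeR with TMM scaling, was -0.13, -0.03, -0.12 and 0.10 at 3, 6, 12 and 24 h, each with an SE of 0.19. That of mt-Rnr1 was -0.19, -0.11, -0.09 and 0.19, each with an SE of 0.23. Every one of these estimates was smaller than its SE, and the smallest adjusted p of the 8 was 0.621 (edgeR's quasi-likelihood test, Benjamini-Hochberg over 18087 genes). Without contralateral 3 h replicate 1 and ipsilateral 24 h replicate 1, both rRNAs changed sign at 3 h, to 0.20 for mt-Rnr2 and 0.09 for mt-Rnr1, and at 24 h, to -0.19 and -0.18.

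Among the coding genes 1 row dominated. mt-Co1, the catalytic subunit of cytochrome c oxidase (complex IV), held 69.2% to 79.2% of all mitochondrial coding counts. In CPM per kilobase of gene, its median over the libraries was 3939, followed by the complex I subunit mt-Nd1 at 521.9, mt-Cytb, the complex III cytochrome b, at 421.2, mt-Nd2 at 338.5 and mt-Nd5 at 201.2. The lowest were mt-Co2 at 21.3, mt-Atp6 at 14.8, mt-Atp8 at 13.7 and mt-Nd4l at 4.14. mt-Co1, mt-Co2 and mt-Co3 encode subunits of a single complex, yet on this per-length scale mt-Co3 stood at 78.8.

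The low rows were largely those with nuclear copies. Of the 50-base windows of mt-Co2, mt-Co3, mt-Atp6, mt-Nd3 and mt-Nd4l, 98.0% to 100% also occurred in an annotated nuclear transcript, against 62.2% for mt-Nd4, 51.1% for mt-Co1, 8.2% for mt-Nd2, 7.6% for mt-Nd5, and 0 for mt-Nd1, mt-Cytb, mt-Nd6 and mt-Atp8. The shared windows of the first 5 lay mostly in a block of unprocessed pseudogenes on chromosome 1, where Gm28661 (mt-Co2), Gm10925 (mt-Atp6), Gm28437 (mt-Co3), Gm28438 (mt-Nd3), Gm10222 (mt-Nd4l) and Gm28439 (the first 876 bases of mt-Nd4) matched at 100% of aligned bases. For mt-Atp8 this comparison covers annotated transcripts only. The stretch between the copies of mt-Co2 and mt-Atp6, chr1:24614652-24614884, is 233 bases long. The mitochondrial stretch between the matched parts of the 2 genes, chrM:7694-7926, starts in the last bases of mt-Co2 and has the same length. The sequence of the chromosome 1 stretch was not read, so whether it holds a copy of mt-Atp8 was not tested. How reads with several matching places were treated is not given in the sources used here, so the counts of these rows are uncertain and their low level cannot be read as a low level of the mRNA. Of the copies just named, Gm10222 had a row of its own, with 20 to 141 counts per library, against 19 to 221 for mt-Nd4l. Other pseudogenes that share windows also had rows. Among them, Gm13341 had 282 to 1010 counts against 229 to 1394 for mt-Co2. Gm13340 had 1256 to 5787 against 166689 to 460780 for mt-Co1.

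**Figure D2:**
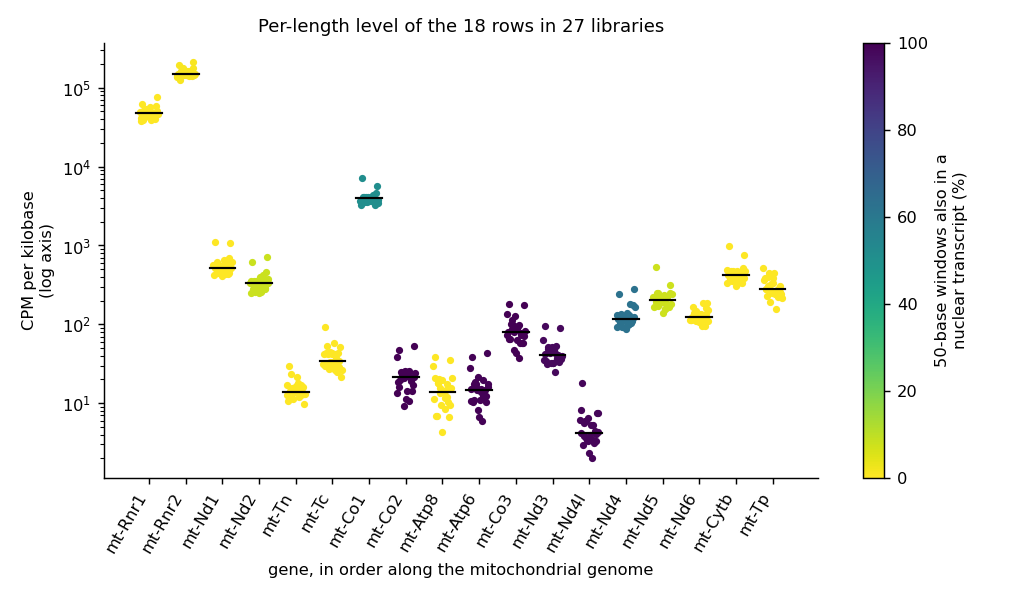
CPM per kilobase of each of the 18 rows in each of the 27 libraries (log axis), with genes in their order along the mitochondrial genome, black lines for medians and colour for the share of 50-base windows that also occur in a nuclear transcript. The 5 darkest genes, with shares of at least 98.0%, have medians below those of mt-Nd1, mt-Nd2, mt-Nd5, mt-Nd6 and mt-Cytb.

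The rows also differed in spread. The highest library exceeded the lowest 2.22-fold for mt-Co1 and 1.97-fold for mt-Nd6, but 7.34-fold for mt-Atp6, 8.9-fold for mt-Nd4l and 9.01-fold for mt-Atp8. The last 3 rows had medians of 373, 52 and 117 counts. Contralateral 3 h replicate 1 was the highest library for 8 of the 13 coding genes, ipsilateral 24 h replicate 1 for 4, and ipsilateral 6 h replicate 2 for mt-Nd6.

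The coding share was 0.791%, 0.674% and 0.777% in sham cortex. Contralateral libraries held 1.57%, 0.759% and 0.819% after 3 h, 0.879%, 0.728% and 0.826% after 6 h, 0.846%, 0.737% and 0.842% after 12 h, and 0.818%, 0.718% and 0.769% after 24 h. Ipsilateral libraries held 0.872%, 0.739% and 0.784% after 3 h, 0.899%, 0.863% and 0.812% after 6 h, 0.681%, 0.722% and 0.980% after 12 h, and 1.28%, 0.730% and 0.817% after 24 h. Apart from the 2 libraries above 1%, each library lay between 0.674% and 0.980%, and the hemispheres overlapped at every time. The mean over the 4 times was 0.848% ipsilateral and 0.859% contralateral, a difference of -0.011 points (exact permutation within time, p = 0.887, adjusted p = 0.887). The difference was -0.25 points after 3 h, 0.047 after 6 h, -0.014 after 12 h and 0.17 after 24 h, and -0.095, 0.028 and 0.034 points by surgery day. Without contralateral 3 h replicate 1 it was 0.0093 points after 3 h, and without ipsilateral 24 h replicate 1 it was 0.0052 points after 24 h. The mean difference was 0.012 points without the 2 libraries above 1% and 0.054 points without contralateral 3 h replicate 1 alone. Against sham it was 0.10 points for ipsilateral (exact permutation p = 0.306, adjusted p = 0.48) and 0.11 points for contralateral libraries (exact permutation p = 0.295, adjusted p = 0.48). The first of these was 0.062 points without ipsilateral 24 h replicate 1 and 0.064 without sham replicate 2, and the second 0.047 points without contralateral 3 h replicate 1. The log2 ratio of rRNA to coding counts, from which the library total drops out, averaged 5.14 ipsilateral and 5.11 contralateral (difference 0.028, exact permutation p = 0.686, adjusted p = 0.829). That mean joined opposite orders. After 3 h the 3 ipsilateral libraries, with 34.3 to 36.1 rRNA counts per coding count, lay above the contralateral ones, with 23.4, 34.1 and 29.8. After 6 h they lay below, with 32.5 to 34.2 against 34.7 to 36.5, and after 12 h and 24 h the hemispheres overlapped.

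Gene by gene, no coding gene passed the test in any comparison. At 3 h 0 of 18 mitochondrial rows passed for ipsilateral against contralateral, where 0.249% of the 18087 genes tested did; at 6 h it was 1 of 18 against 7.99%, at 12 h 0 against 12.2% and at 24 h 0 against 19.1%. With unadjusted p under 0.05, the counts were 2, 1, 0 and 1 of 18 at these times, against 10.7%, 22.3%, 26.5% and 32.3% of all genes. Against sham, ipsilateral cortex had 0, 1, 0 and 1 of 18 rows at 3, 6, 12 and 24 h, where 0.243%, 6.11%, 10.3% and 22.2% of all genes passed, and 0, 1, 1 and 1 of 18 had an unadjusted p under 0.05, against 8.58%, 20.7%, 24.9% and 35.2%. Contralateral cortex against sham had 0 of 18 at each time, where 0.0111%, 0.0332%, 0.238% and 0.111% of all genes passed, and 4, 0, 1 and 0 of 18 had an unadjusted p under 0.05, against 8.64%, 4.3%, 7.45% and 6.47%. DESeq2 gave the same counts of adjusted calls. The 8 comparisons with sham share the same 3 sham libraries. All 18 rows passed the filter on low counts. The test of whether the hemisphere difference itself varied between the 4 times called 0 of 18 rows, against 1.34% of all genes (by unadjusted p 1 of 18, against 16.6%), and the smallest adjusted p among the coding genes was 0.367, for mt-Nd4.

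The coding genes nevertheless carried a shared sign at the first and last times. All 13 estimates were negative at 3 h, with a median of -0.66, and all 13 were positive at 24 h, with a median of 0.55, while the medians over all genes were 0.00098 and 0.028. Each of these runs of sign rested on 1 library. Without contralateral 3 h replicate 1, 10 of 13 estimates at 3 h were positive and the median was 0.068. Without ipsilateral 24 h replicate 1, 9 of 13 at 24 h were positive and the median was 0.11. At 6 h 5 of 13 were positive and at 12 h 3 of 13, with medians of -0.07 and -0.14.

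**Figure D3:**
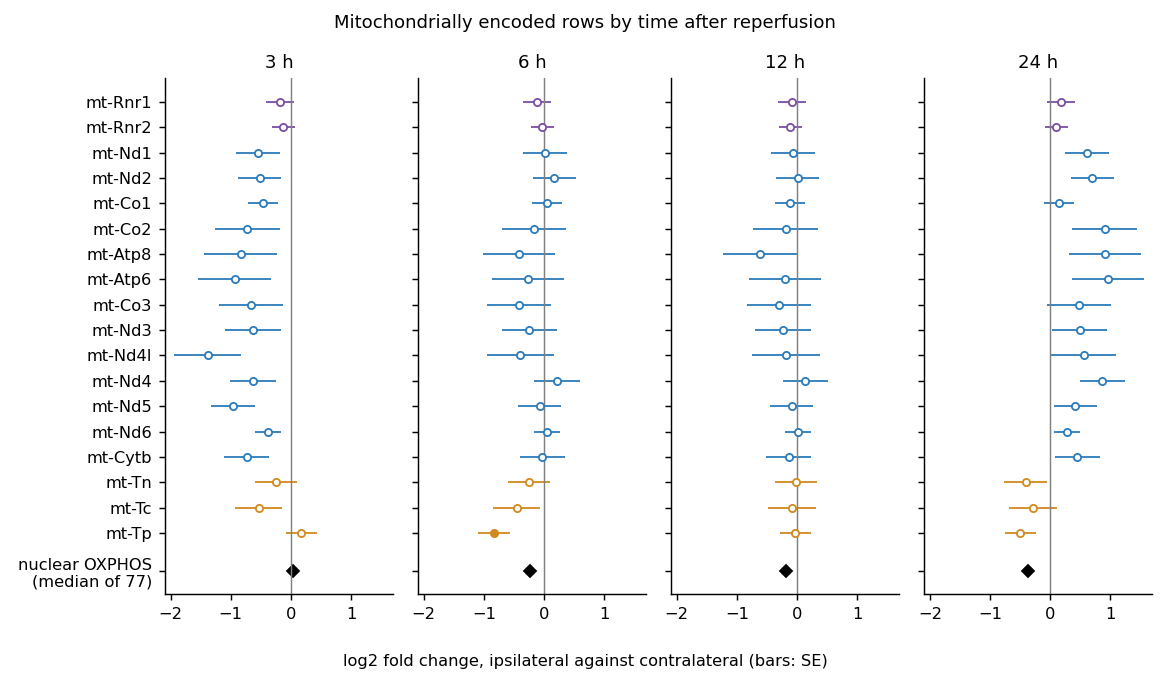
Log2 fold change of ipsilateral against contralateral cortex for each of the 18 rows at each time (points; bars are SE from edgeR, n = 3 libraries per group; filled points have an adjusted p under 0.05), with the median of 77 nuclear-encoded OXPHOS subunit genes as a diamond. The one filled point is mt-Tp at 6 h, and the 13 coding genes (blue) all lie below 0 at 3 h and above 0 at 24 h, which does not hold without contralateral 3 h replicate 1 and ipsilateral 24 h replicate 1.

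The lowest estimate at 3 h was that of mt-Nd4l, a small complex I subunit (chrM:9877-10173). It had 5.37, 0.868 and 1.13 CPM in the contralateral and 1.57, 1.02 and 0.604 in the ipsilateral libraries at 3 h. Contralateral replicate 1 was the highest of all 27 libraries and the other 5 overlapped. The log2 fold change was -1.38 ± 0.56 (SE; edgeR adjusted p = 0.36) with that library and 0.13 without it (adjusted p = 0.981).
At the other end of the range at 3 h stood mt-Nd6, a complex I subunit and the one coding gene on the minus strand (chrM:13552-14070). It had 64.9, 85.7 and 68.3 CPM contralaterally and 70.4, 57.0 and 49.1 ipsilaterally at 3 h. The groups overlapped, and contralateral replicate 1 was not the highest library, unlike its place for mt-Nd4l. The log2 fold change of mt-Nd6 was -0.38 ± 0.22 after 3 h, 0.05 ± 0.22 after 6 h, 0.02 ± 0.22 after 12 h and 0.27 ± 0.22 after 24 h, with adjusted p of 0.546, 0.929, 0.966 and 0.406 (edgeR).

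At 6 h the estimates ran from mt-Co3, a complex IV subunit (chrM:8607-9390), to mt-Nd4 of complex I (chrM:10167-11544). mt-Co3 had 79.4, 87.9 and 68.2 CPM contralaterally and 77.8, 45.3 and 58.2 ipsilaterally, and its log2 fold change was -0.41 ± 0.53 (edgeR adjusted p = 0.695). mt-Nd4 had 184.8, 126.0 and 168.9 contralaterally and 179.2, 253.0 and 142.9 ipsilaterally, a log2 fold change of 0.22 ± 0.38 (adjusted p = 0.781). Both pairs of groups overlapped, and ipsilateral replicate 2 was the lowest of 6 for mt-Co3 and the highest of 6 for mt-Nd4.
mt-Nd4 was again the highest at 12 h, with 156.7, 158.8 and 161.4 CPM contralaterally, 150.7, 156.4 and 244.9 ipsilaterally and a log2 fold change of 0.14 ± 0.38 (edgeR adjusted p = 0.871). The lowest at 12 h was mt-Atp8, a small ATP synthase subunit (chrM:7766-7969), with 2.76, 3.15 and 1.94 contralaterally and 2.09, 1.37 and 1.93 ipsilaterally. The groups overlapped and the log2 fold change was -0.62 ± 0.62 (adjusted p = 0.592). In sham cortex mt-Atp8 had 5.98, 2.32 and 4.24 CPM, above all 3 ipsilateral libraries at 12 h, and that log2 fold change was -1.24 ± 0.61 (adjusted p = 0.217). When the fit held only those groups the same difference had an adjusted p of 0.0189, and without contralateral 3 h replicate 1 and ipsilateral 24 h replicate 1 it had 0.0245.

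At 24 h the lowest estimate was that of mt-Co1 (chrM:5328-6872), with 6103.9, 5683.5 and 5790.6 CPM contralaterally and 8857.2, 5353.8 and 5796.5 ipsilaterally. The log2 fold change was 0.15 ± 0.25 (edgeR adjusted p = 0.717) and -0.22 without ipsilateral replicate 1 (adjusted p = 0.59). The highest was that of mt-Atp6, the proton-channel subunit of ATP synthase (chrM:7927-8607), with 14.5, 4.59 and 7.55 contralaterally and 29.8, 10.9 and 12.0 ipsilaterally. Its log2 fold change was 0.97 ± 0.60 (adjusted p = 0.281) and 0.21 without ipsilateral replicate 1 (adjusted p = 0.86). In both genes ipsilateral replicate 1 was the highest of the 6 libraries.

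Among the tRNAs, mt-Tp fell in ipsilateral cortex in 3 comparisons. It had 34.4, 24.8 and 26.03 CPM in sham cortex, from 401 to 1502 counts per library over the whole series. Contralateral libraries had 18.8, 18.7 and 15.1 at 3 h, 26.5, 20.2 and 29.9 after 6 h, 12.8, 18.1 and 21.7 after 12 h, and 16.8, 22.4 and 26.1 after 24 h. Ipsilateral libraries had 29.8, 16.8 and 16.1 after 3 h, 10.4, 15.6 and 18.7 after 6 h, 14.9, 18.8 and 20.7 after 12 h, and 17.2, 16.3 and 14.3 after 24 h. At 6 h all 3 ipsilateral libraries lay below all 3 contralateral and all 3 sham libraries. At 12 h and 24 h they lay below all 3 sham libraries but overlapped the contralateral ones.

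Against contralateral cortex at 6 h, mt-Tp fell by 0.83 on the log2 scale (SE 0.26), 1.78-fold lower, with an adjusted p of 0.0494 by edgeR, where 2.14% of all genes passed as lower. With the surgery day as a block this call was lost (adjusted p = 0.062), and with a block of day within each time it held (adjusted p = 0.0114). Leaving out any of contralateral replicates 1 and 3 or ipsilateral replicates 1 and 2 at 6 h also ended it, with adjusted p from 0.132 to 0.202. Against sham, mt-Tp fell by 0.94 at 6 h (SE 0.26, edgeR adjusted p = 0.0314), where 1.09% of all genes passed as lower, and by 0.87 at 24 h (SE 0.26, adjusted p = 0.0187), where 10.9% did. Without sham replicate 1, the highest library for this gene, the adjusted p was 0.152 at 6 h and 0.101 at 24 h. The call at 24 h also ended without ipsilateral 24 h replicate 3 (adjusted p = 0.0829), and that at 6 h without sham replicate 3 (0.0599), ipsilateral 6 h replicate 1 (0.15) or replicate 2 (0.0966). At 12 h the log2 fold change against sham was -0.68 ± 0.26 (adjusted p = 0.0991), and at 24 h against contralateral cortex -0.50 ± 0.26 (adjusted p = 0.189).

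In the contralateral hemisphere mt-Tp also had negative estimates against sham, of -0.60, -0.11, -0.65 and -0.38 at 3, 6, 12 and 24 h, and none passed (edgeR adjusted p from 0.504 to 1). At 3 h and 12 h all 3 contralateral libraries were below all 3 sham libraries. The test of whether the hemisphere difference of mt-Tp varied between times had an adjusted p of 0.295.

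The other tRNA rows were lower and did not pass. mt-Tc had 1.41 to 6.15 CPM and mt-Tn 0.692 to 2.12, with as few as 47 and 23 counts in a library, and contralateral 3 h replicate 1 was the highest for both. The largest hemisphere difference of mt-Tc was -0.54 ± 0.39 at 3 h (edgeR adjusted p = 0.66). There it had 6.15, 2.88 and 2.04 CPM contralaterally and 3.855, 2.79 and 1.75 ipsilaterally. Without contralateral replicate 1 the highest of these values was ipsilateral. The largest difference of mt-Tn was -0.41 ± 0.35 at 24 h (edgeR adjusted p = 0.451), where all 3 ipsilateral libraries were below all 3 contralateral ones. Summed, the tRNA rows averaged 20.8 CPM ipsilaterally, 24.6 contralaterally and 31.6 in sham cortex. mt-Tp alone averaged 17.5, 20.6 and 28.4 CPM in the same groups, so the sums mostly repeat its result. Ipsilateral against contralateral the difference of the sums was -3.74 CPM (exact permutation within time, p = 0.109, adjusted p = 0.398). With single libraries left out it ran from -5.03 CPM, without ipsilateral 3 h replicate 1 (exact permutation p = 0.0122), to -2.97 CPM. The signs differed by time, with 2.36, -11.45, 0.62 and -6.5 CPM at 3, 6, 12 and 24 h. By surgery day the difference was -1.68, -3.65 and -5.90 CPM, and the ipsilateral sum was higher in 5 of 12 same-day pairs. Against sham the difference was -10.8 CPM for ipsilateral libraries (exact permutation p = 0.00879, adjusted p = 0.0967) and -7.08 for contralateral ones (exact permutation p = 0.0528, adjusted p = 0.29). The last value was -4.2 CPM without sham replicate 1. None of these passed after adjustment over the 11 class comparisons.

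Of 7 nuclear noncoding RNAs tested, 1 was lower (Rn7sk) and 2 were higher in ipsilateral than sham cortex at 24 h. In that comparison 22.2% of all genes passed in either direction and 10.9% as lower. The higher ones were Malat1 (0.53 ± 0.18, edgeR adjusted p = 0.0298) and Neat1 (2.55 ± 0.39, adjusted p = 0.000188). At 6 h the edgeR adjusted p of the 7 ran from 0.133 to 0.874. The 3 short ones among them are given here beside mt-Tp, chosen after their values were seen, and their part in its result was not tested. Rn7sk, the RNA of the 7SK particle that restrains transcription elongation, had 17336.2, 15893.1 and 11406.7 CPM in sham cortex and 7420.8, 11513.0 and 8222.9 in ipsilateral cortex at 24 h. It fell by 0.77 on the log2 scale there against sham (SE 0.17, edgeR adjusted p = 0.00149) and by 0.65 against contralateral cortex (SE 0.17, adjusted p = 0.00699). At 6 h its log2 fold change was -0.42 ± 0.17 against sham (adjusted p = 0.133) and -0.23 ± 0.17 against contralateral cortex (adjusted p = 0.449). Rpph1, the RNA of nuclear RNase P, had -0.86 ± 0.31 at 24 h (adjusted p = 0.0539) and -0.72 ± 0.31 at 6 h (adjusted p = 0.19) against sham. Rmrp, the RNA of RNase MRP, had -0.63 ± 0.33 (adjusted p = 0.186) and -0.64 ± 0.33 (adjusted p = 0.281).

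**Figure D4:**
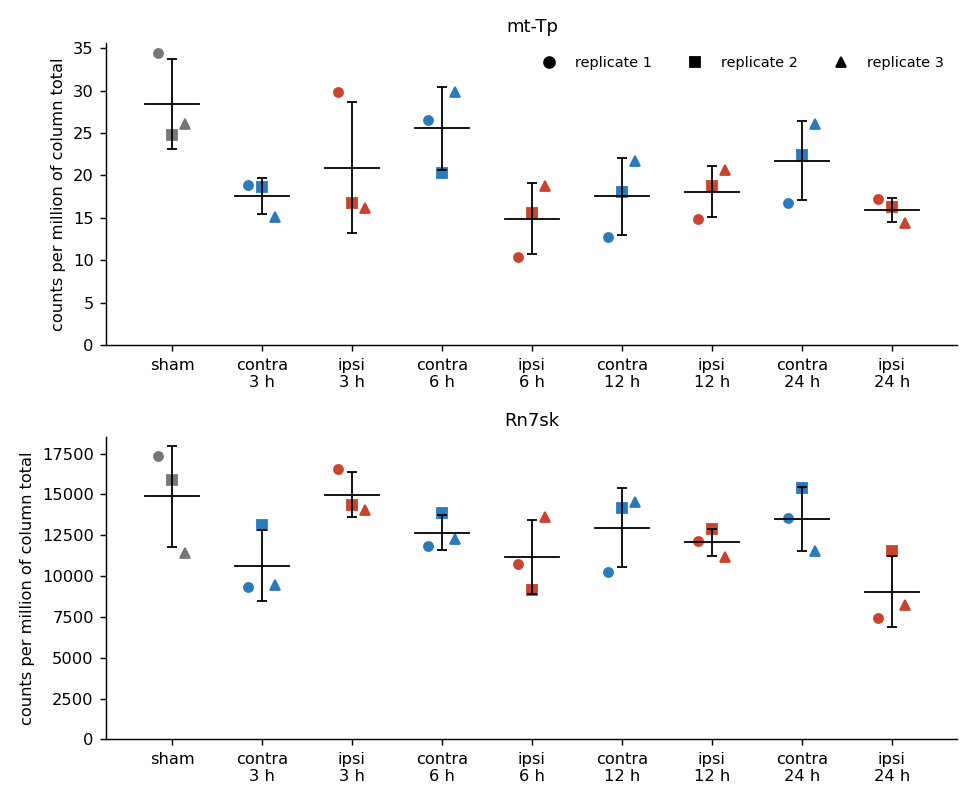
CPM (share of the column total) for mt-Tp (top) and the nuclear noncoding RNA Rn7sk (bottom) in each of the 27 libraries by group; symbols mark replicates, horizontal lines group means and bars SD (n = 3). For mt-Tp the ipsilateral 6 h libraries lie between 10.4 and 18.7 and the sham libraries between 24.8 and 34.4; Rn7sk is lowest in ipsilateral 24 h replicate 1, at 7420.8.

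The nuclear-encoded subunits of the respiratory chain and ATP synthase were compared with the mitochondrial ones at 24 h, when they showed most calls. Of 77 nuclear-encoded subunit genes tested, 42 were lower and 0 higher in ipsilateral than contralateral cortex (edgeR adjusted p under 0.05), with a median log2 fold change of -0.36, where 9.36% of all genes passed as lower. Complexes were assigned by gene symbol alone, so every Nduf gene, Ndufa4 included, was counted under complex I. The calls were spread over the groups so formed, with 19 of 38 genes of complex I, 2 of 4 of complex II, 6 of 9 of complex III, 7 of 11 of complex IV and 8 of 15 of complex V. Examples were Ndufa4, a small subunit of the chain (-0.59 ± 0.11, adjusted p = 0.000462), Cox6c of complex IV (-0.53 ± 0.11, adjusted p = 0.00148), Sdha, the flavoprotein of complex II (-0.41 ± 0.09, adjusted p = 0.00167), and Ndufb4 of complex I (-0.66 ± 0.15, adjusted p = 0.00221). The count was 20 without ipsilateral 24 h replicate 1, 17 without replicate 3 and 15 without contralateral 24 h replicate 1, with medians of -0.35 and -0.31 in the first 2 cases. Of 10 neuron markers, 6 were lower and 0 higher in ipsilateral than contralateral cortex at 24 h (edgeR adjusted p under 0.05). Their summed level, in TMM-scaled CPM, was 3561 to 4156 in ipsilateral libraries at 24 h, against 4914 to 5283 contralaterally and 4906 to 5422 in sham cortex. Map2 and Gad2 went the other way, with ipsilateral means of 1010 and 108 against 868 and 91 contralaterally. The part of neuron markers in the result for the subunit genes was not tested.

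The mitochondrial coding counts per nuclear subunit count were 1.15, 1.01 and 1.29 in sham cortex. At 24 h the ratio was 1.28, 1.18 and 1.22 contralaterally and 2.85, 1.32 and 1.54 ipsilaterally, so the ipsilateral libraries all lay above the contralateral ones, with and without replicate 1. Groups of 3 cannot give an exact permutation p under 0.10, and a test of that time with the spread pooled over groups was not run. The log2 ratio differed by 0.55 at 24 h, and by 0.22 without ipsilateral 24 h replicate 1. At 3 h it was 3.09, 1.22 and 1.43 contralaterally and 1.59, 1.08 and 1.31 ipsilaterally. There the log2 ratio differed by -0.42, and by -0.0063 without contralateral 3 h replicate 1. The groups overlapped at 3, 6 and 12 h. Over the 4 times the mean log2 ratio was 0.59 ipsilaterally and 0.48 contralaterally, a difference of 0.11 (exact permutation within time, p = 0.54, adjusted p = 0.743), higher in 7 of 12 same-day pairs and on each of the 3 days (0.022, 0.16 and 0.14). It was 0.024 without ipsilateral 24 h replicate 1 and 0.21 without contralateral 3 h replicate 1, the lowest and highest values with 1 library left out.

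**Figure D5:**
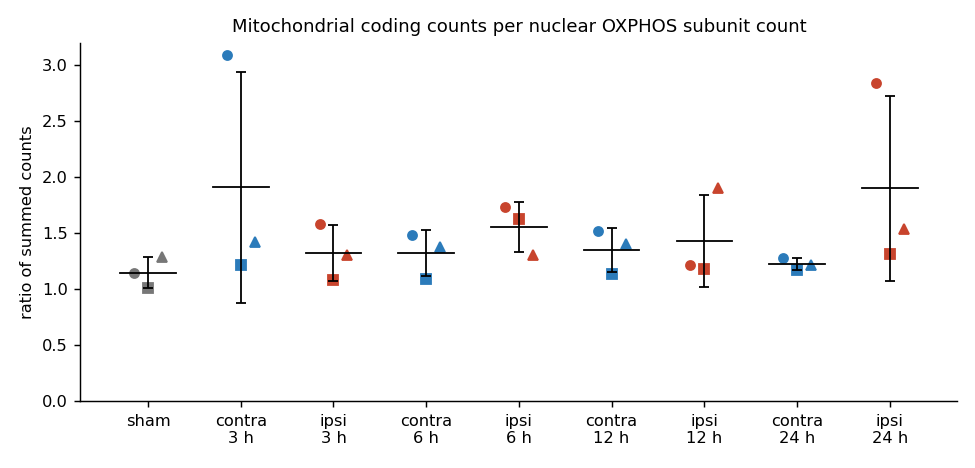
Summed counts of the 13 mitochondrial coding genes divided by the summed counts of 77 nuclear-encoded OXPHOS subunit genes, per library and group; symbols mark replicates (circle 1, square 2, triangle 3), horizontal lines group means and bars SD (n = 3). At 24 h the ipsilateral libraries lie between 1.32 and 2.85, above the contralateral range of 1.18 to 1.28, while contralateral 3 h replicate 1 stands at 3.09.

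The nuclear genes that act on the mitochondrial genome and its RNAs were read at 24 h as well. In ipsilateral against contralateral cortex at that time, 9.74% of all genes passed as higher and 9.36% as lower. Of 18 genes of mitochondrial DNA transcription and replication, 2 were higher and 0 lower. The higher ones were Mterf3, a transcription and ribosome assembly factor (0.52 ± 0.17, edgeR adjusted p = 0.0305), and Tfam, which packages and activates mitochondrial DNA (0.40 ± 0.14, adjusted p = 0.0411). The mitochondrial RNA polymerase Polrmt had -0.24 ± 0.18 (adjusted p = 0.39). Leaving out contralateral 24 h replicate 1 or 3, or ipsilateral replicate 2 or 3, left 0 calls in this list. Of 26 genes of mitochondrial RNA processing and stability, 1 was higher (Ptcd3, a mitochondrial ribosome protein, 0.44 ± 0.15, adjusted p = 0.0381) and 1 lower (Fastk, which takes part in mt-Nd6 RNA processing, -0.40 ± 0.14, adjusted p = 0.0438), and leaving out ipsilateral 24 h replicate 2 or 3, or any contralateral 24 h library, left 0. Without ipsilateral replicate 1, 1 was higher and 0 lower. Of 11 regulators of mitochondrial biogenesis, 4 were higher and 2 lower, beside the same 9.74% and 9.36% of all genes. The higher ones were Nfe2l2, the regulator of the antioxidant response (0.89 ± 0.18, adjusted p = 0.00115), and 3 factors that act on nuclear genes of mitochondrial proteins, Nrf1 (0.61 ± 0.13, adjusted p = 0.00196), Gabpa (0.71 ± 0.17, adjusted p = 0.00346) and Gabpb1 (0.69 ± 0.16, adjusted p = 0.00365). The lower ones were Sirt3, a mitochondrial deacetylase (-0.45 ± 0.13, adjusted p = 0.0151), and Ppargc1a, the coactivator that drives biogenesis (-0.41 ± 0.14, adjusted p = 0.0427). The higher calls numbered 3 to 5 and the lower ones 0 to 2 when each library of the 2 groups was left out in turn, with 0 lower without contralateral replicate 1 or ipsilateral replicate 1.

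The list of mitochondrial RNA processing and stability had more calls at 12 h than at 24 h. Of its 26 genes, 5 were higher and 0 lower in ipsilateral than contralateral cortex at 12 h, where 7.94% of all genes passed as higher. They were Tbrg4 (0.52 ± 0.14, edgeR adjusted p = 0.0118), Mrm1, a methyltransferase of the mitochondrial large-subunit rRNA (0.52 ± 0.16, adjusted p = 0.0273), Ptcd3 (0.48 ± 0.15, adjusted p = 0.031), the mitochondrial poly(A) polymerase Mtpap (0.48 ± 0.15, adjusted p = 0.0379) and Trmt10c, a subunit of mitochondrial RNase P (0.53 ± 0.17, adjusted p = 0.0409). The count was 0 without contralateral 12 h replicate 1 or ipsilateral 12 h replicate 1, 1 without ipsilateral replicate 3 and 2 without contralateral replicate 2. At 12 h 1 of the 18 genes of mitochondrial DNA transcription and replication was higher (Tfam, 0.60 ± 0.14, adjusted p = 0.00415), and none without ipsilateral 12 h replicate 1. Of the 11 biogenesis regulators 4 were higher at 12 h, Gabpa (0.89 ± 0.17, adjusted p = 0.000725), Nrf1, Gabpb1 and the transcription factor Yy1 (adjusted p from 0.00227 to 0.00393), and 3 or 4 with 1 library of these groups left out.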

How the data were processed

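Total RNA from 27 cortex samples was depleted of rRNA with Ribo-Zero and made into TruSeq libraries, per the labels' protocols. The authors deposited raw counts per gene. The submitters' processing notes name STAR 2.5.0a, featureCounts 1.4.3-p1, edgeR and the build mm10; for the annotation, the strand setting and multiply matching reads they are silent here. The members and gene lists were chosen with earlier results of these data known.

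Class shares are sums of counts over the column total of 22340 rows, with 95% Wilson intervals. Genes were filtered with filterByExpr (minimum count 10, total 15; 18087 left) and fitted with edgeR 4.0.16 in R 4.3.3, with TMM, 1 mean for each of 9 groups, robust quasi-likelihood F-tests and Benjamini-Hochberg adjustment over all genes tested, threshold 0.05. Fits and permutation tests were checked on simulated data. Class values were compared by exact two-sided permutation, within time for hemispheres. Coordinates and 50-base windows came from GENCODE M21 transcripts (GRCm38, the assembly of mm10), with Biopython 1.88 for alignment.

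Genes named are both rRNAs, the coding genes with the lowest and highest hemisphere fold change at each time, mt-Nd6, the tRNAs, any called member, and up to 4 genes with the smallest p from each nuclear list; Polrmt, Rn7sk, Rpph1, Rmrp, Malat1, Neat1, mt-Atp8 against sham, both Ppargc1a and Sirt3, and the nuclear genes at 12 h were added after their values were seen.

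The series' design text makes each replicate number a day of surgery, which pairs libraries by day. After removal of group means, the correlation over all tested genes averaged 0.0475 over 108 pairs of libraries with one number. It averaged -0.0237 over 216 pairs with different numbers. Removing group means ties the second average to the first, so it is not a separate comparison. Of the 12 hemisphere pairs, 6 were above 0.1. The main model has no block. The closest pair of libraries within any group differed by 13.8 times sampling noise (chi-square per degree of freedom), so none was treated as a repeat. Alternatives were DESeq2 1.42.0, RLE size factors, nuclear rows alone or column totals for scaling, other filters, only the compared groups, blocks of day, and leaving libraries out.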

Additional observations from a re-analysis of the deposited data

Results flagged for a closer look

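Class values whose hemisphere difference ran one way in each same-day pair at one time and the other way in each pair at another are given here; for these values the difference between times was not tested, and the test across genes called 0 of 18 rows. The log2 ratio of coding to nuclear OXPHOS counts differed by -0.42 at 3 h and 0.55 at 24 h, ipsilateral minus contralateral. Without contralateral 3 h replicate 1 the former was -0.0063, and without ipsilateral 24 h replicate 1 the latter was 0.22. These settings, here and below, kept the other library of that day, so the days no longer matched. In replicates 2 and 3 the ratio at 3 h was 1.08 and 1.31 ipsilaterally, against 1.22 and 1.43 contralaterally. The coding share differed by -0.25 percentage points at 3 h and 0.17 points at 24 h. Without those same libraries the differences of group means were 0.0093 and 0.0052 points, of one sign. The same-day pairs of replicates 2 and 3 kept their opposite orders. Ipsilateral shares were 0.739% and 0.784% against 0.759% and 0.819% at 3 h, and 0.730% and 0.817% against 0.718% and 0.769% at 24 h. The log2 ratio of rRNA to coding counts differed by 0.30 at 3 h, -0.083 at 6 h and -0.12 at 24 h. Without them it was 0.15 at 3 h and -0.055 at 24 h.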

How the results depend on the processing

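No rRNA or coding gene was called under any alternative except mt-Atp8 in ipsilateral against sham cortex at 12 h: the count of members called there, 0 of 18, became 2 with only the compared groups (mt-Tp at -0.66 and mt-Atp8) and 1 without contralateral 3 h replicate 1 and ipsilateral 24 h replicate 1 (mt-Atp8). For ipsilateral against contralateral cortex at 6 h the count of 1, mt-Tp, became 0 with RLE size factors (log2 fold change -0.83, edgeR adjusted p = 0.0507), with no filter (-0.84, 0.0671), with the replicate block of surgery day (-0.82, 0.062) and without those 2 libraries (-0.83, 0.0538). DESeq2 kept it (adjusted p = 0.0128). The replicate block changed no other count of members called. With single libraries left out, the counts ran from 0 to 1 in that comparison and in ipsilateral against sham at 6 h and 24 h. The cause of these changes was not tested.

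The coding share difference between hemispheres turned positive without those 2 libraries (0.012 points), without mt-Co1 (0.0041) and with the 4 coding genes that share no 50-base window (0.0016); the last 2 settings were chosen after seeing the data. With single libraries left out it ran from -0.053 to 0.054 points, the rRNA share difference from -0.52 to 1.48 points, the tRNA difference from -5.03 to -2.97 CPM (p 0.0122 to 0.233, exact permutation), the contralateral minus sham tRNA difference from -8.52 to -4.2 (p 0.0302 to 0.308, exact permutation), the log2 ratio of rRNA to coding counts from -0.0091 to 0.059, and that of coding to nuclear OXPHOS counts from 0.024 to 0.21 (p 0.113 to 0.886, exact permutation). Against sham, the coding share ran from 0.062 to 0.12 points for ipsilateral and 0.047 to 0.13 points for contralateral libraries.

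Single genes changed sign at these settings, none of them called. With column totals, mt-Tp at 12 h was 0.046 and mt-Rnr2 at 6 h 0.012; with a replicate block within each time, mt-Nd6 at 12 h was -0.012. Without the 2 libraries, the values at 24 h were -0.18 for mt-Rnr1, -0.19 for mt-Rnr2, -0.21 for mt-Co1 and -0.0085 for mt-Nd6, and at 3 h 0.089 for mt-Rnr1, 0.20 for mt-Rnr2 and 0.12 for mt-Nd4l. With single libraries left out, mt-Rnr1 ran from -0.39 to 0.094 at 3 h, -0.27 to 0.046 at 12 h and -0.18 to 0.36 at 24 h, mt-Rnr2 from -0.27 to 0.20 at 3 h, -0.11 to 0.042 at 6 h and -0.19 to 0.23 at 24 h, and mt-Co1 from -0.22 to 0.31 at 24 h. mt-Nd4 ran from -0.037 to 0.41 at 6 h and -0.16 to 0.27 at 12 h, mt-Nd4l from -1.80 to 0.13 at 3 h, and mt-Nd6 from -0.20 to 0.20 at 6 h, -0.19 to 0.21 at 12 h and -0.015 to 0.47 at 24 h. mt-Tp ran from -0.23 to 0.36 at 3 h and -0.20 to 0.16 at 12 h, and from -0.24 to 0.069 for contralateral against sham at 6 h. The fewest counts were those of mt-Tn, mt-Tc, mt-Nd4l and mt-Atp8, with as few as 23, 47, 19 and 37 in a library; the part of depth in their spread was not tested.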
